A study of Mus musculus with 11 samples.

Results

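The transcripts described here are those of 10 genes of de novo fatty acid synthesis, listed by name: Slc25a1, Acly, Acss2, Acaca, Acacb, Fasn, Thrsp, Elovl6, Scd1 and Scd2. They were found by symbol in the mouse annotation, and all 10 of them were measured among 52282 genes and passed the filter on low counts, which 26960 genes passed. RNA of the inguinal fat pad, a subcutaneous white depot, was sequenced from C57BL6/J mice aged 16 weeks. The design crossed loss of Raptor, the defining subunit of the kinase complex mTORC1, with rosiglitazone, a drug that activates the nuclear receptor PPARγ. All 11 libraries came from mice that carry floxed Raptor and had been on a high fat diet for 8 weeks. The control genotype is floxed without Cre and is called WT here. The second genotype, called KO, adds Cre recombinase under the adiponectin promoter, which is active in adipocytes, so the other cells of the depot keep the gene. Treated mice took rosiglitazone at 30 mg/kg/day for the same 8 weeks. Each group holds 3 libraries, except KO without the drug, which holds 2.

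The labels of the 6 WT libraries contradict themselves: where the treatment characteristic says rosiglitazone the title says none, and the reverse. The characteristic was used, and the names of the deposited files carry the same treatment. Each difference below that involves a WT group depends on this choice. Nothing in the labels ties each library to its own animal, so the p-values cover the spread between libraries, part of which may be technical. In bulk tissue, fewer adipocytes and less RNA per adipocyte cannot be told apart.

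Fatty acid synthesis starts from citrate that leaves the mitochondrion through the citrate carrier Slc25a1. ATP citrate lyase (Acly) splits it to acetyl-CoA in the cytosol, and acetyl-CoA synthetase (Acss2) makes acetyl-CoA from acetate. Acetyl-CoA carboxylase makes malonyl-CoA, as a cytosolic form (Acaca) that feeds synthesis and a form at the mitochondrial outer membrane (Acacb) whose product restrains fatty acid oxidation. Fatty acid synthase (Fasn) builds palmitate, Elovl6 lengthens it to stearate, and the stearoyl-CoA desaturases Scd1 and Scd2 turn saturated into monounsaturated fatty acids. Thrsp, also called Spot 14, is a small lipogenic accessory protein. Insulin acts on this pathway in fat partly through mTORC1 and the transcription factor SREBP, and carbohydrate through the transcription factor ChREBP.

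Depth was 13035346 to 40925952 estimated reads a library. The 10 genes took 1.32 to 2.59% of all reads in WT on diet, 0.619 to 0.920% in WT with rosiglitazone, 0.692 to 1.56% in KO on diet and 0.119 to 0.186% in KO with rosiglitazone. Levels below are in CPM (estimated reads scaled to library size, with TMM scaling) unless TPM, a level per transcript length, is named. Libraries of 1 group differed in tissue make-up. The 10 B cell markers summed to 34.9 and 1144 CPM in KO on diet, and to 43.0, 1072 and 973 CPM in WT on diet. The 11 skeletal muscle markers were above 2700 CPM in 4 libraries (1 each of WT on diet and KO with rosiglitazone, 2 of WT with rosiglitazone) and at most 277 CPM in the others. The 14 mature adipocyte markers were present in every library and summed to 8489 to 26502 CPM in WT on diet, 23825 to 28168 CPM in WT with rosiglitazone, 1930 to 5376 CPM in KO on diet and 3337 to 4224 CPM in KO with rosiglitazone. Rptor itself measured 92.0, 80.1 and 73.9 CPM in WT on diet and 56.5 and 69.6 CPM in KO on diet. With rosiglitazone it measured 119, 126 and 110 CPM in WT and 88.3, 82.4 and 91.7 CPM in KO. Every KO library lay below every WT library of its treatment, with log2 fold changes of -0.38 ± 0.17 (SE; edgeR adjusted p = 0.467) on diet and -0.44 ± 0.15 (adjusted p = 0.0749) with rosiglitazone. These are whole-gene levels over all cells of the depot and do not single out a deleted exon.

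The RefSeq promoter table (GRCm38.p6) held 8 of the 10 genes, from 250 bases before the start site to 50 after it. Scd1 and Scd2 are named only. The windows of Fasn, Thrsp, Acly, Slc25a1 and Acss2 are printed because the first 3 of these genes and the last 2 had contrasting levels across the 4 groups. Capitals mark matches, on both strands, to CCAAT (a box bound by the factor NF-Y), to CACGTG (an E-box) and to GGGCGG (a GC box). The window of Fasn is chr11:120824498-120824797 (minus strand), that of Thrsp chr7:97417501-97417800 (minus), that of Acly chr11:100527951-100528250 (minus), that of Slc25a1 chr16:17928170-17928469 (minus) and that of Acss2 chr2:155517793-155518092 (plus).
Fasn: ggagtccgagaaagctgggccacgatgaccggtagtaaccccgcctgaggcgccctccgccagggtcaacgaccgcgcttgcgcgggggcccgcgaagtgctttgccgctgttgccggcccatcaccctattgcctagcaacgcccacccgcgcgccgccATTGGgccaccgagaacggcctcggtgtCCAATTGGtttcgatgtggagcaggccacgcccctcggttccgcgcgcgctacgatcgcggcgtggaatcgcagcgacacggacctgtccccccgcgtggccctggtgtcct
Thrsp: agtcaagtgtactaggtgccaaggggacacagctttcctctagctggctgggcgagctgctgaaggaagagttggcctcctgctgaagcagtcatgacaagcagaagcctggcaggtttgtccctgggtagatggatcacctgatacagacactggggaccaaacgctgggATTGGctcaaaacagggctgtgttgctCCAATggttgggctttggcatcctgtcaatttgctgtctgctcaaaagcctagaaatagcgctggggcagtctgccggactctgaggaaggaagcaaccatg
Acly: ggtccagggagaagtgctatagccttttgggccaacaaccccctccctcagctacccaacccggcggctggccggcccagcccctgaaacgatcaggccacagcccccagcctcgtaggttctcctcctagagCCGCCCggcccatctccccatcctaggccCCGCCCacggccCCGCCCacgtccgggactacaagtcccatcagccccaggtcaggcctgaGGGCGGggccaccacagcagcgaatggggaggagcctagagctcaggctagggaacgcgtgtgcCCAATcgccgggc
Slc25a1: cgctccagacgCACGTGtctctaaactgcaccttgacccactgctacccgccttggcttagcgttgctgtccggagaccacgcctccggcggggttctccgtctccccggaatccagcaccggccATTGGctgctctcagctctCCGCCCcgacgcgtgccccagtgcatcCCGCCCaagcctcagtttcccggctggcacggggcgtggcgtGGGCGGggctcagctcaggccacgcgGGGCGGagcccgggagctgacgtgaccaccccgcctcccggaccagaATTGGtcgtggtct
Acss2: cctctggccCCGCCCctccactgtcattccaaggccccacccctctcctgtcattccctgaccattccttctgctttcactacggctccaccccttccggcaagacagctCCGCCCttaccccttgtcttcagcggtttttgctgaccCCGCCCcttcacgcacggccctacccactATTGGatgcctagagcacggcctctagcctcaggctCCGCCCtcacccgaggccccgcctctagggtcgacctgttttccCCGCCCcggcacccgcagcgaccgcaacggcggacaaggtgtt

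The Fasn window held 3 matches to CCAAT, whose first bases lay 90, 62 and 59 bases before the start site. The latter pair overlap on opposite strands. The Thrsp window held 2, at 79 and 52 bases. Of the 8 windows, 6 held CCAAT, against 37.4% of 32851 RefSeq windows of the same length, and 3 held GGGCGG, against 35.7%. The only CCAAT of the Acly window lay after the start site, at base 38. CACGTG was in the Slc25a1 window alone (7.15% of all windows), and a match to TCACNCCAC was in none of the 8 (1.24% of all windows). A match is a run of letters and no measure of binding. The RefSeq start of Acaca is the first base of its most abundant transcript, as it is for Elovl6 and Slc25a1. For Fasn, Acly and Acacb the most abundant annotated transcript starts 452, 4402 and 18983 bases away from the RefSeq start. For Thrsp and Acss2 it starts 180 and 95 bases away.

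The acetyl-CoA supply genes did not share 1 pattern. Slc25a1, the citrate carrier, measured 132, 60.6 and 35.5 CPM in WT on diet, 139, 182 and 147 CPM in WT with rosiglitazone, 57.5 and 38.7 CPM in KO on diet and 25.8, 21.8 and 23.6 CPM in KO with rosiglitazone. It was highest in all 3 treated WT libraries and lowest in all 3 treated KO libraries. Acly measured 208, 125 and 102 CPM in WT on diet, 149, 178 and 164 CPM in WT with rosiglitazone, 855 and 369 CPM in KO on diet and 103, 123 and 114 CPM in KO with rosiglitazone. Both KO libraries on diet lay above the 9 others, which spanned 102 to 208 CPM. Acss2 measured 90.1, 49.4 and 26.8 CPM in WT on diet and 48.2, 66.9 and 58.4 CPM in WT with rosiglitazone. In KO it stood at 22.5 and 23.6 CPM on diet and at 22.1, 21.8 and 21.5 CPM with rosiglitazone. All 5 KO libraries were thus within a narrow band below all 6 WT libraries.

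The carboxylases differed from each other mainly in KO on diet. Acaca measured 438, 284 and 256 CPM in WT on diet, 652, 904 and 652 CPM in WT with rosiglitazone, 2004 and 620 CPM in KO on diet and 152, 204 and 114 CPM in KO with rosiglitazone. The KO libraries with the drug were the 3 lowest of the 11, and the second KO library on diet lay beside the treated WT libraries. Acacb measured 163, 261 and 195 CPM in WT on diet, 624, 974 and 607 CPM in WT with rosiglitazone, 538 and 179 CPM in KO on diet and 165, 291 and 204 CPM in KO with rosiglitazone. Only the treated WT group was set apart from all other libraries.

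Fasn, whose product is the pathway's main output, measured 2771, 1301 and 666 CPM in WT on diet and 2145, 2722 and 2365 CPM in WT with rosiglitazone. In KO it measured 8435 and 3324 CPM on diet and 425, 593 and 263 CPM with rosiglitazone. The KO libraries on diet were the 2 highest and the KO libraries with the drug the 3 lowest of all 11. Thrsp had the same order of groups at both ends: 334 and 169 CPM in KO on diet and 30.0, 43.1 and 21.9 CPM in KO with rosiglitazone. Its WT levels, 126, 61.8 and 55.6 CPM on diet and 55.1, 72.5 and 84.9 CPM with rosiglitazone, overlapped between treatments.

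Of the enzymes that modify palmitate, Elovl6 was the lowest gene of the set in TPM in 3 of the 4 groups. It measured 19.6, 16.6 and 15.7 CPM in WT on diet, 7.60, 8.96 and 7.55 CPM in WT with rosiglitazone, 85.6 and 23.4 CPM in KO on diet and 8.29, 17.1 and 9.09 CPM in KO with rosiglitazone. Its treated WT libraries were lower than all of WT on diet, and its 2 KO libraries on diet lay 3.66-fold apart. Scd1 measured 26085, 10127 and 9570 CPM in WT on diet, 3013, 6531 and 3650 CPM in WT with rosiglitazone, 2119 and 720 CPM in KO on diet and 371, 381 and 217 CPM in KO with rosiglitazone. The 4 groups formed a descending series with no library shared between neighbours. Scd2 measured 459, 226 and 113 CPM in WT on diet, 66.5, 61.6 and 69.6 CPM in WT with rosiglitazone, 100.1 and 98.3 CPM in KO on diet and 103, 125 and 71.3 CPM in KO with rosiglitazone. Scd2 did not follow Scd1: the ratio of Scd1 to Scd2 CPM was 44.9 to 84.3 in WT on diet, 45.3 to 106 in WT with rosiglitazone, 7.32 and 21.2 in KO on diet and 3.04 to 3.60 in KO with rosiglitazone.

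**Figure D1:**
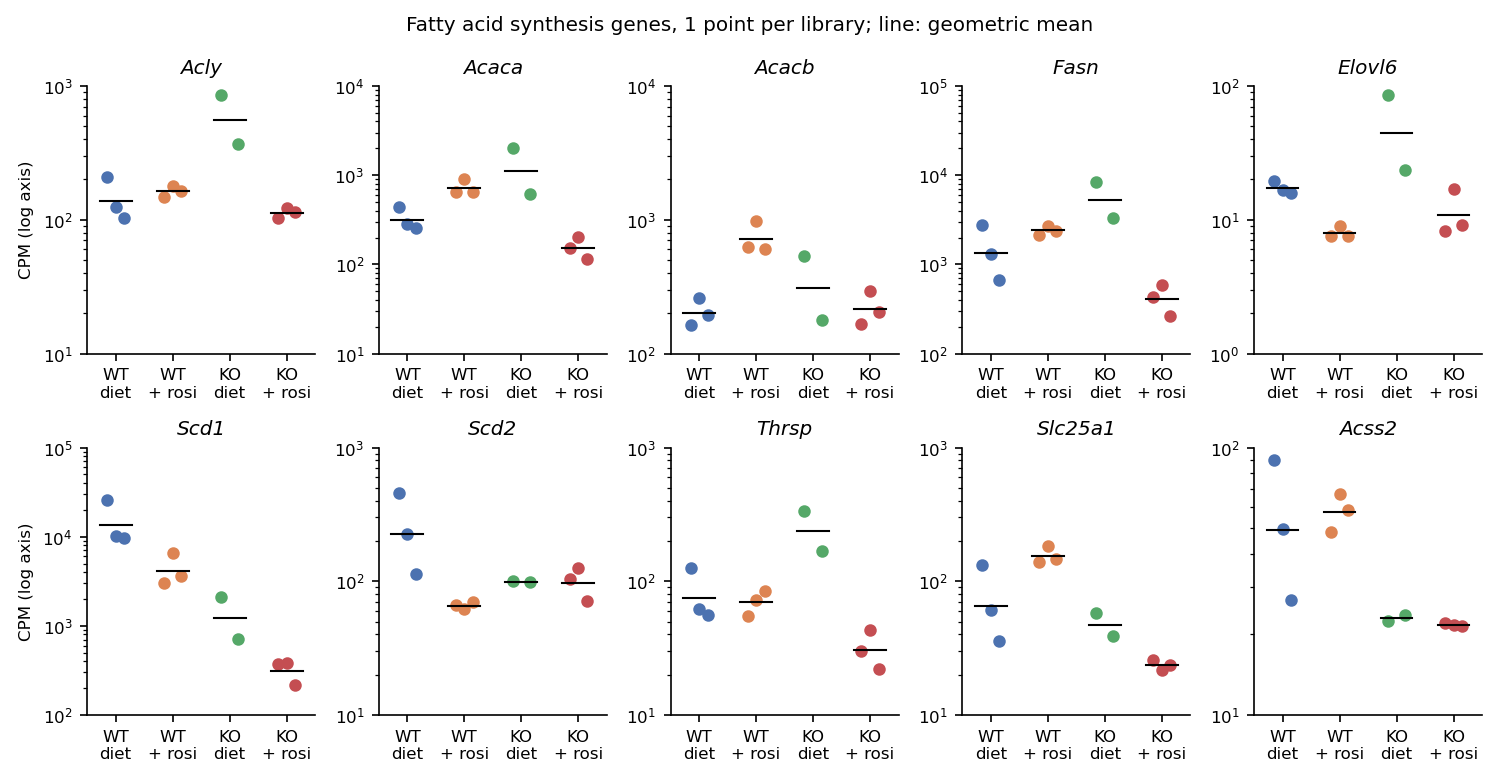
CPM of the 10 genes on log axes, 1 point per library and a line at the geometric mean of each group (3, 3, 2 and 3 libraries). Acly, Fasn and Thrsp are highest in KO on diet, Scd1 descends from left to right, and Acss2 sits at 21.5 to 23.6 CPM in all 5 KO libraries.

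Within a group, the highest library was a median of 2.49 times the lowest over the 10 genes in WT on diet, 1.35 in WT with rosiglitazone, 2.43 for KO on diet and 1.76 for KO with the drug. Fasn spread 4.16-fold among the WT libraries on diet and Acss2 1.03-fold among the KO libraries with rosiglitazone.

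The share of Scd1 in the summed TPM of the set was lower in all KO libraries than in all WT libraries, and that of Fasn was highest in KO on diet. Scd1 gave 82.1 to 87.1% of the summed TPM of the 10 genes in WT on diet and 46.3 to 59.5% in WT with rosiglitazone. In KO tissue the share was 14.6 and 18.0% on diet and 18.4 to 24.2% with rosiglitazone. Fasn gave 3.79 to 6.48% in WT on diet, 14.5 to 19.8% in WT with rosiglitazone, 43.5 and 43.8% in KO on diet and 17.8 to 21.7% in KO with rosiglitazone. Scd1 ranked first by geometric mean TPM in both WT groups (3198 TPM on diet, 859 TPM with rosiglitazone), clear of Fasn in every library. In KO on diet Fasn ranked first (524 and 1405 TPM), with a range that overlapped that of Scd1 (176 and 576 TPM). In KO with rosiglitazone Scd1 (34.2 to 56.3 TPM) and Fasn (27.6 to 56.8 TPM) could not be ordered, and each of the 8 genes ranked above Acss2 overlapped the next one down.

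**Figure D2:**
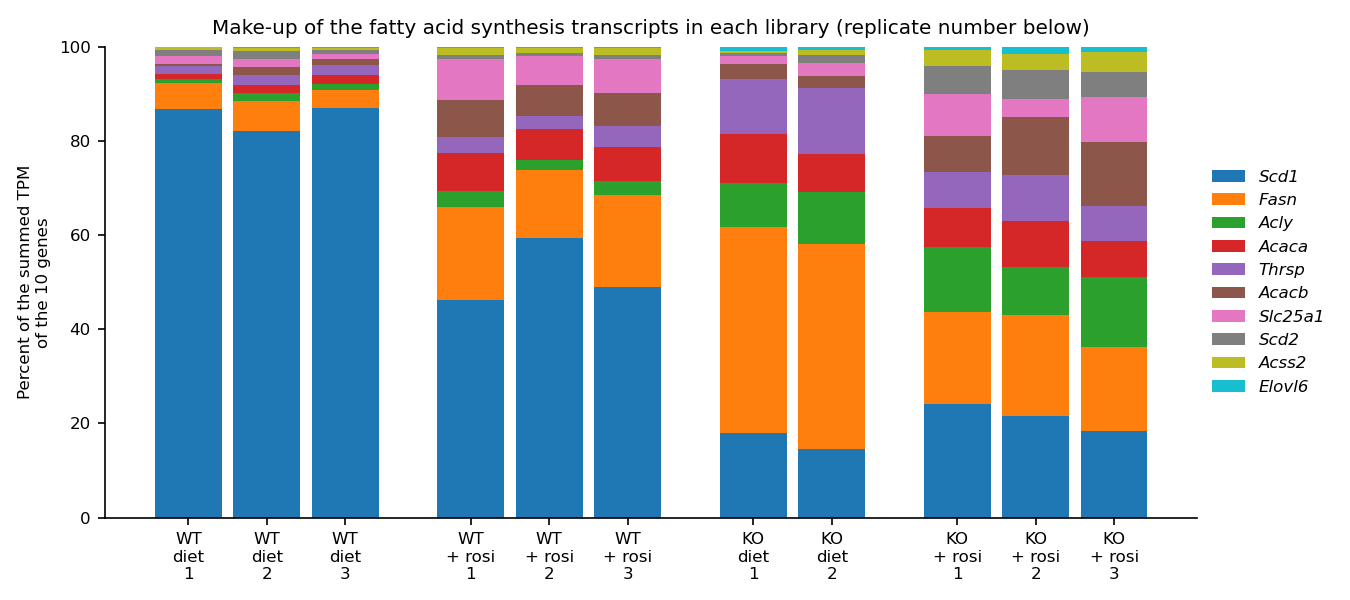
Share of each gene in the summed TPM of the 10 genes, 1 bar per library. Scd1 fills 82.1 to 87.1% of the bars of WT on diet, and Fasn 43.5 and 43.8% of those of KO on diet.

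With rosiglitazone in WT tissue, the values of the 10 genes went in both directions and 1 gene passed the test. Scd2 fell 4.04-fold (log2 fold change -2.01 ± 0.43, SE; edgeR quasi-likelihood test with Benjamini-Hochberg adjustment over all genes, adjusted p = 0.0445; 3 libraries against 3). Across all genes tested, 2.14% passed, and 0.593% passed as lower. The largest positive values were those of the carboxylases and the citrate carrier: Acacb at 1.83 ± 0.42 (adjusted p = 0.0542), Acaca at 1.17 ± 0.42 (adjusted p = 0.191) and Slc25a1 at 1.04 ± 0.39 (adjusted p = 0.210). Every treated library lay above every untreated one for these 3 genes, as for 13.4% of all genes tested. Scd1 stood at -1.79 ± 0.58 (adjusted p = 0.150) and Elovl6 at -1.10 ± 0.42 (adjusted p = 0.215), and with Scd2 these made 3 genes whose treated libraries all lay below the untreated, as for 10.4% of all genes. Fasn (0.61 ± 0.54), Acly (0.17 ± 0.33), Acss2 (0.06 ± 0.34) and Thrsp (-0.19 ± 0.38) overlapped between the groups, and their 95% intervals reached from -0.60 to 1.82, from -0.56 to 0.91, from -0.70 to 0.82 and from -1.05 to 0.66. The median over the 10 genes was 0.12, and -0.05 over all genes tested.

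The Scd2 call was lost in 7 of the 11 fits that left out 1 library (highest adjusted p = 0.198, without WT with rosiglitazone replicate 2), and with the WT groups taken from the titles its log2 fold change was 2.01. DESeq2 called 3 genes (Acacb higher, Scd1 and Scd2 lower), beside 7.35% of all genes. limma-voom called 6 (Acaca, Acacb and Slc25a1 higher, Elovl6, Scd1 and Scd2 lower), beside 27.2% of all genes.

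On diet alone, KO tissue had higher values of the core synthesis genes and lower values of the desaturases, and none of the 10 passed the edgeR test after adjustment (0.137% of all genes did). Without adjustment, 8 of the 10 were at p under 0.05, 5 with higher and 3 with lower values in KO, as were 10.5% of all genes. Acly stood at 2.08 ± 0.37 (4.22-fold; adjusted p = 0.0807), Acaca at 2.01 ± 0.46 (adjusted p = 0.163), Fasn at 1.90 ± 0.60 (adjusted p = 0.290), Elovl6 at 1.66 ± 0.46 (adjusted p = 0.220) and Thrsp at 1.63 ± 0.42 (adjusted p = 0.191). Both KO libraries lay above all 3 WT libraries for these 5 genes, as for 10.5% of all genes tested. Scd1 stood at -3.43 ± 0.73 (10.8-fold lower in KO; adjusted p = 0.134), Scd2 at -1.42 ± 0.48 (adjusted p = 0.324) and Acss2 at -1.27 ± 0.40 (adjusted p = 0.288), each with no overlap, as for 10.3% of all genes with lower values. Acacb (0.80 ± 0.45) and Slc25a1 (-0.66 ± 0.44) overlapped. DESeq2 called 6 genes here (Acly, Acaca, Fasn, Elovl6 and Thrsp higher, Scd1 lower), beside 2.73% of all genes, and limma-voom 0, beside 0.0223%.

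The 2 KO libraries on diet differed in tissue make-up as well as in these genes: the one with 34.9 CPM of B cell markers had 855 CPM of Acly, and the one with 1144 CPM of B cell markers had 369 CPM. With the log2 B cell sum as a covariate, chosen after seeing the data, 5 genes passed (Acly, Acaca, Fasn and Thrsp higher, Scd1 lower), as did 5.95% of all genes. Leaving out KO on diet replicate 2 gave 3 calls (0.885% of all genes) and leaving out replicate 1 none (0.0809%). With WT groups taken from the titles, 4 genes passed (Acly, Elovl6 and Thrsp higher, Slc25a1 lower), as did 10.7% of all genes.

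In KO tissue, the values of 7 genes were lower with rosiglitazone at an unadjusted p under 0.05, a level that 8.36% of all genes reached in either direction. None of the 10 passed after adjustment, with 3 libraries against 2 (0.0148% of all genes passed). Fasn stood at -3.78 ± 0.63 (13.8-fold lower; adjusted p = 0.109), Acaca at -3.06 ± 0.48 (8.37-fold), Thrsp at -2.99 ± 0.43 (7.95-fold) and Acly at -2.43 ± 0.37 (5.39-fold), the latter 3 each at an adjusted p of 0.0786. Elovl6 (-2.25 ± 0.46; adjusted p = 0.179), Scd1 (-2.14 ± 0.63; adjusted p = 0.361) and Slc25a1 (-1.02 ± 0.43; adjusted p = 0.565) also had every treated library below both untreated ones. With Acss2, whose values were nearly equal (-0.08 ± 0.39; 95% interval -0.94 to 0.78), 8 of the 10 genes had no overlap in this direction and 0 in the other, against 10.7% and 10.5% of all genes. Scd2 stood at 0.01 ± 0.46 and Acacb at -0.70 ± 0.45, both with overlap. The median over the 10 genes was -2.19, and -0.01 over all genes tested.

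DESeq2 called 6 of the 10 lower (Acly, Acaca, Fasn, Elovl6, Scd1 and Thrsp), beside 1.35% of all genes, as did limma-trend on log2(TPM + 1), beside 0.942%. On that TPM scale the median of all genes was itself -0.60 here. limma-voom called 0 of the 10 and 0% of all genes. Leaving out WT on diet replicate 1 gave 3 calls (0.0785% of all genes), and leaving out any other library outside KO on diet gave 0 (0.00372 to 0.0112%). Leaving out 1 of the 2 KO libraries on diet leaves 1 library in that group. Without replicate 2 the log2 fold changes of Fasn, Acaca and Acly were -4.31, -3.68 and -2.92. Without replicate 1 they were -2.96, -1.98 and -1.70. The mature adipocyte markers overlapped between the 2 KO groups (1930 to 5376 CPM on diet, 3337 to 4224 CPM with the drug), and 7 genes passed with the log2 sum of these markers as a covariate, as did 3.08% of all genes.

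With rosiglitazone, KO tissue had less of 6 of the 10 transcripts than WT tissue, with 3 libraries against 3. Slc25a1 was 6.56-fold lower (log2 fold change -2.71 ± 0.42; edgeR adjusted p = 0.0038) and Scd1 13.6-fold lower (-3.77 ± 0.63; adjusted p = 0.00543). The carboxylases and the synthase were lower too: Acaca 4.69-fold (-2.23 ± 0.44; adjusted p = 0.0103), Acacb 3.34-fold (-1.74 ± 0.42; adjusted p = 0.0221) and Fasn 5.65-fold (-2.50 ± 0.57; adjusted p = 0.0189). Acss2 was 2.65-fold lower (-1.41 ± 0.35; adjusted p = 0.0257). Of all genes tested, 15% passed in this comparison and 9.5% as lower. Thrsp stood at -1.16 ± 0.39 (adjusted p = 0.0723) and Acly at -0.53 ± 0.33 (adjusted p = 0.303; 95% interval -1.26 to 0.21). Elovl6 (0.51 ± 0.42; adjusted p = 0.434) and Scd2 (0.60 ± 0.41; adjusted p = 0.344) had positive values in CPM and values of -0.03 and -0.01 on the log2(TPM + 1) scale. The median of all genes on the latter scale was -0.30. Of the 10 genes, 8 had every KO library below every WT library, as did 24.7% of all genes, and 1 (Scd2) the reverse, as did 23.5%.

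All 14 mature adipocyte markers were called lower in the same comparison and 10 of 12 macrophage markers higher (481 to 545 CPM in sum in WT, 1870 to 2355 CPM in KO, both with the drug). Of all genes, 9.5% were called lower and 5.47% higher. With the log2 sum of the adipocyte markers as a covariate, none of the 6 genes passed. Fasn stood at 0.38 and Acss2 at 0.05, while Slc25a1, Scd1, Acaca and Acacb kept negative values. Acly alone passed, as higher, at 1.41, beside 7.66% of all genes. The marker sums of the 2 groups did not overlap (3337 to 4224 CPM in KO, 23825 to 28168 CPM in WT). This fit therefore cannot separate genotype from marker level. Slc25a1 and Scd1 passed in all 11 fits that left out 1 library, while the count fell to 2 without KO with rosiglitazone replicate 1 (6.13% of all genes) or 3 (5.6%) and to 3 without WT with rosiglitazone replicate 2 (5.6%). With WT groups taken from the titles Scd1 alone passed, beside 2.31% of all genes. Without the 4 libraries richest in muscle markers, which leaves 1 library of WT with rosiglitazone, 0% of the 28243 genes tested passed, and the log2 fold changes of the 6 genes ran from -3.28 for Scd1 to -1.07 for Acss2.

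**Figure D3:**
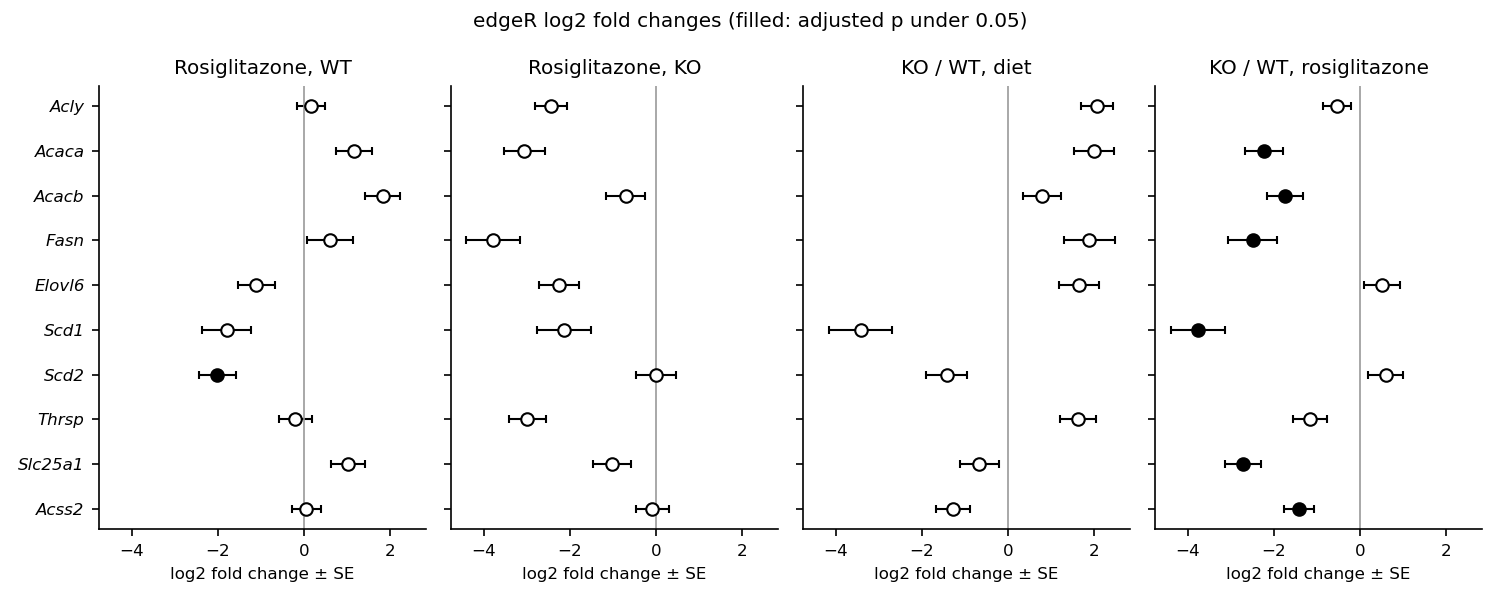
Log2 fold changes of the 10 genes with their standard errors in the 4 comparisons, filled where the edgeR adjusted p was under 0.05. The filled points are Scd2 in the first panel and 6 genes in the last.

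The difference between the drug's effect in KO and in WT tissue was tested as an interaction, and none of the 10 genes passed after adjustment (0.104% of all genes did). Acaca stood nearest, at -4.24 ± 0.64 (adjusted p = 0.051), followed by Fasn at -4.39 ± 0.83 and Acly at -2.60 ± 0.50 (both adjusted p = 0.0981). Thrsp stood at -2.80 ± 0.57 (adjusted p = 0.124), Acacb at -2.54 ± 0.60 (adjusted p = 0.177), Slc25a1 at -2.05 ± 0.58 (adjusted p = 0.271) and Scd2 at 2.02 ± 0.63 (adjusted p = 0.309). Without adjustment, 7 of the 10 were at p under 0.05, 6 of them negative, as were 10.5% of all genes in either direction. Scd1 (-0.34 ± 0.84), Acss2 (-0.14 ± 0.52) and Elovl6 (-1.14 ± 0.62) were not. DESeq2 called 6 genes (Acly, Acaca, Acacb, Fasn, Thrsp and Slc25a1; 1.97% of all genes), limma-voom 2 (Acly and Acaca; 0.226%) and limma-trend 0 (0.0185%). Leaving out WT on diet replicate 1 (0.422% of all genes) or KO on diet replicate 2 (1.23%) gave 5 calls.

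Set against the adipocyte markers of the same library, the summed level of the 10 genes separated the 2 treatments. Their summed CPM per CPM of the 14 markers was 1.15, 1.24 and 1.30 in WT on diet and 2.71 and 2.88 in KO on diet. With rosiglitazone it was 0.290, 0.415 and 0.307 in WT and 0.422, 0.431 and 0.301 in KO. The untreated KO libraries had the highest ratios and the treated libraries of both genotypes overlapped. In WT on diet these sums were mostly Scd1, at 9570 to 26085 CPM of sums of 11036 to 30490 CPM. In WT with rosiglitazone Scd1 gave 3013 to 6531 CPM of sums of 6898 to 11700 CPM. The separation in WT is that of a sum led by Scd1, and it does not show that the other genes separate the treatments there. For Fasn per CPM of Adipoq, the gene of the adipocyte hormone adiponectin, the ratio was 1.65, 2.38 and 1.47 in WT on diet and 1.28, 1.46 and 1.34 in WT with rosiglitazone. In KO it was 41.1 and 57.6 on diet and 3.17, 3.22 and 1.31 with rosiglitazone. Adipoq was itself lower in KO on diet (205.2 and 57.7 CPM) than in WT on diet (453 to 1679 CPM). Of the 14 markers, 13 had lower values in KO on diet and 1 a higher value (log2 fold change 0.69). That 1 was Gpd1, at 1270 and 372 CPM in KO and 232 to 890 CPM in WT on diet. The size of a ratio to 1 marker thus depends on the marker taken.

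**Figure D4:**
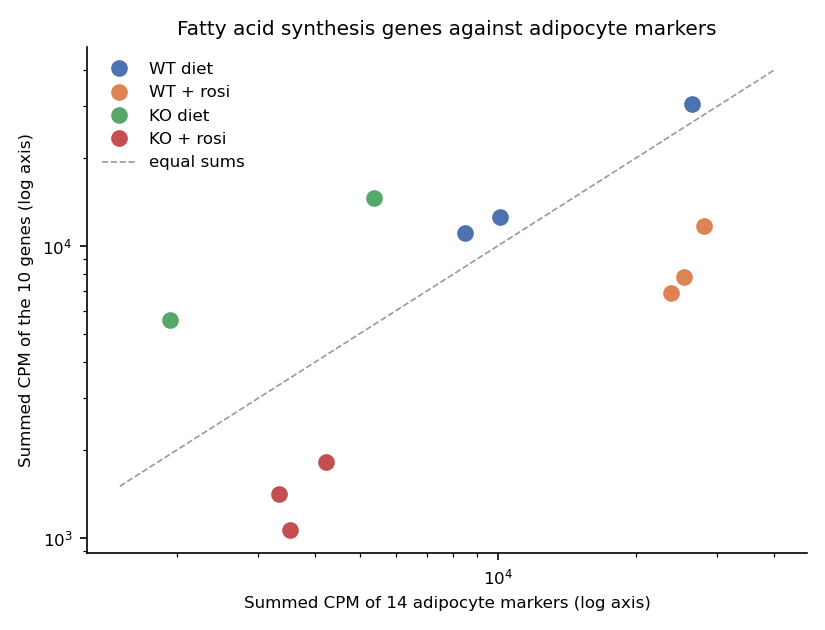
Summed CPM of the 10 genes against summed CPM of 14 mature adipocyte markers, both on log axes, 1 point per library. The 2 KO libraries on diet lie above the line of equal sums at ratios of 2.71 and 2.88, and all 6 libraries with rosiglitazone lie below it.

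Acaca, which is known to be transcribed from several promoters, differed between the groups in its first exon as well as in its level. Its transcript Acaca-202 starts at chromosome 11 position 84173122 (GRCm38, plus strand), in an exon that ends at 84173555 and lies 22316 bases before the start of Acaca-201, the most abundant form. Acaca-202 measured 89.8 and 18.4 TPM in KO on diet. It measured 0, 0.469 and 0.257 TPM in WT on diet, 1.03, 1.64 and 0.129 TPM in WT with rosiglitazone and 0.150, 0 and 0 TPM in KO with rosiglitazone. The 2 KO libraries on diet were thus the only ones with an appreciable amount. The estimated counts of Acaca-202 were 13385 and 3762 reads in these libraries and 0 to 545 in the other 9. These counts are estimates of the same kind as the TPM, and reads over the first exon alone were not counted. As a share of the gene's TPM, Acaca-202 made up 26.9 and 18.7% in KO on diet and at most 1.31% elsewhere.

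A second annotated transcript with the same first exon, Acaca-207, is classed as a retained intron. Together the pair gave 37.9 and 33.2% of Acaca TPM in KO on diet, 5.79 to 9.19% in WT on diet, 3.96 to 4.56% in WT with rosiglitazone and 9.16 to 20.4% in KO with rosiglitazone. The 3 transcripts that start in the exon at 84179831 to 84179926 gave 6.28 and 7.22% in KO on diet and 17.4 to 25.1% in the other libraries, from 23 to 386 assigned reads over all 11. Acaca-201 held 51.0 to 64.9% in every library. The difference in Acaca-202 was not tested, and the transcript was singled out after its values were seen. These transcripts share most of their exons, so the split between them is an estimate from the reads over the parts that differ.

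**Figure D5:**
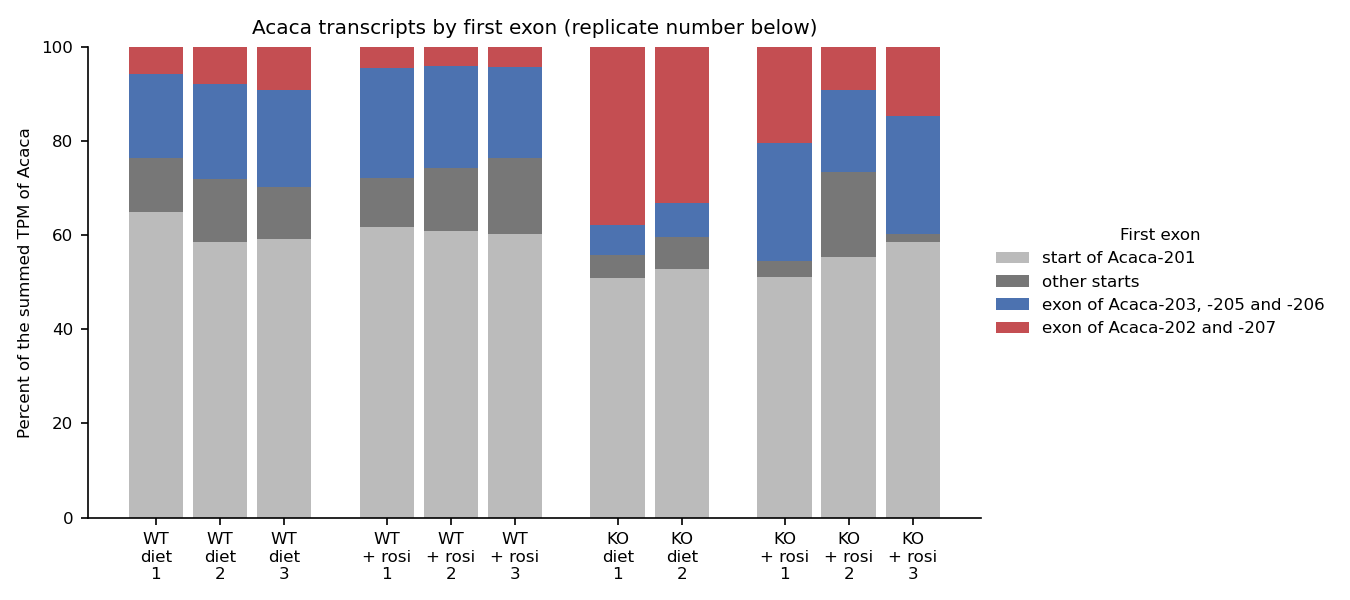
Share of Acaca TPM by first exon of the transcript, 1 bar per library. The exon of Acaca-202 and Acaca-207 holds 37.9 and 33.2% in KO on diet and 3.96 to 20.4% in the other 9 libraries.

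Scd1 and Scd2 have 1 annotated transcript each. Fasn-205 held 63.4 to 90.9% of Fasn TPM over the libraries, Thrsp-201 84.9 to 92.9% of Thrsp, Acly-207 39.8 to 74.2% of Acly, the most abundant transcript of Slc25a1 39.3 to 97.1% and that of Elovl6 36.4 to 69.7%. Acacb-202 held 26.0 to 28.02% of Acacb in WT with rosiglitazone, below WT on diet (32.9 to 37.3%) and KO on diet (36.1 and 47.0%), while its range in KO with rosiglitazone (24.9 to 58.3%) overlapped all 3. The most abundant transcript of Acss2 held 46.9 to 70.9% of its TPM in the 6 WT libraries and 29.4 to 45.6% in the 5 KO libraries, with no overlap between the genotypes. It measured 1.65 to 5.66 TPM in KO. These differences in transcript share were not tested, and how many other transcripts separate the groups was not counted.

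The other enzymes of cytosolic synthesis, elongation and desaturation (21 of 22 tested) were called higher in 2 cases with rosiglitazone in WT, as were 1.55% of all genes. They were called lower in 7 cases in KO against WT with rosiglitazone, as were 9.5% of all genes. The 2 were Aacs, which makes acetoacetyl-CoA from acetoacetate in the cytosol, at 118 ± 32.7 CPM on diet and 283 ± 24.5 CPM with the drug (SD, n = 3 each; log2 fold change 1.26), and Mlycd, which breaks down malonyl-CoA, at 27.5 ± 6.98 and 77.3 ± 15.3 CPM (1.49). The 7 were Me1, the cytosolic malic enzyme that makes NADPH (-3.34), Fads3 (-3.31), Hsd17b12 (-2.70), Hacd2 (-2.67), Aacs (-2.53), Tecr (-1.08) and Mlycd (-1.06). Hsd17b12, Hacd2 and Tecr carry out the steps of chain elongation that follow the one by Elovl6. No gene of the list passed in the other 2 comparisons.

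Mitochondrial fatty acid synthesis is a separate pathway that supplies lipoic acid. Of its 9 genes, 4 were higher with rosiglitazone in WT: Mecr (1.73; adjusted p = 0.0269), Lipt1 (1.41; 0.031), Mcat (1.19; 0.0287) and Hsd17b8 (1.14; 0.012), all adjusted p-values from edgeR. Of all genes, 1.55% were called higher there. In KO against WT with rosiglitazone 8 of the 9 were lower (9.5% of all genes were), all but Lipt2, with Mecr at -2.10, Lipt1 at -1.53 and Lias, the lipoic acid synthase, at -1.52. Here, too, no gene passed with rosiglitazone in KO or between genotypes on diet. Their median with rosiglitazone in KO was 0.10, where that of the 10 cytosolic synthesis genes was -2.19.

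Of the 7 NADPH genes, Pgls was higher with rosiglitazone in WT (0.80), and Me1, G6pdx (-2.14), Taldo1 (-1.51) and Tkt (-1.22) were lower in KO against WT with the drug. Of all genes, 1.55% were called higher in the first and 9.5% lower in the second of these comparisons. Of the 11 genes of acetyl-CoA and citrate supply that were tested (of 12), none passed with rosiglitazone in WT, although 9 were at an unadjusted p under 0.05 with higher values, a level that 17.4% of all genes reached in either direction. In KO against WT with rosiglitazone 9 were lower: Pcx, pyruvate carboxylase, from 1413 ± 242 CPM in WT to 177 ± 30.5 CPM in KO (-2.999), Pdk4 (-2.73), Mpc1 (-2.11), Slc2a4, the insulin-responsive glucose transporter (-1.998), Dlat (-1.72), Cs (-1.60), Pdha1 (-1.50), Mpc2 (-1.48) and Pdhb (-1.31).

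Of the 17 lipogenic regulators, 8 were lower in KO against WT with rosiglitazone: Insig1 (-2.94), Lpin1 (-2.25), Cebpa (-2.06), Pparg (-1.67), Rxra (-1.52), Insig2 (-1.44), Srebf1, the gene of SREBP-1 (-1.20), and Mlxipl, the gene of ChREBP (-1.18). None passed in the other comparisons. Mlxipl measured 119 ± 72.7 CPM in KO on diet (n = 2) and 31.2 ± 8.74 CPM in KO with rosiglitazone (n = 3; log2 fold change -1.94; edgeR adjusted p = 0.169), while Srebf1 measured 251 ± 93.4 and 255 ± 40.0 CPM (0.03). Of the 9 listed genes of AMP-activated kinase subunits, the kinase Stk11 and acyl-CoA binding proteins, Stk11 was higher with rosiglitazone in WT (0.80), and Dbi (-2.58), Prkaa1 (-0.94), Prkag2 (-0.83) and Stk11 (-0.60) were lower in KO against WT with the drug. In that comparison 15% of all genes passed and 9.5% as lower, so the counts of these lists stand beside a high background. The adipocyte markers were lower in it too. With rosiglitazone in WT, 1.55% of all genes passed as higher.

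Across the 11 libraries, the 10 genes fell into parts that varied together, given here as a description of log2 CPM that shares library, depth and group. Fasn correlated with Acaca at 0.96, with Thrsp at 0.93 and with Acly at 0.84 (Pearson's r). Slc25a1 correlated with Acss2 at 0.89, and Scd1 with Acss2 at 0.80. Scd2 had the weakest relation to the mean of the other 9 genes (0.12), then Acacb (0.35) and Elovl6 (0.40), and Fasn the strongest (0.94). Of 13529 other genes with a mean of at least 1 log2 CPM, those most like the mean of the standardised levels of the set included Fpgt and Gbe1, the glycogen branching enzyme (both 0.97), Zeb1 (0.96), Mkln1, Cggbp1 and Slc25a36 (each 0.94), and Mia3, Pbrm1 and Hdac2 (each 0.92). The likeness is one of shape and not of size. With rosiglitazone in KO, Gbe1 stood at a log2 fold change of -1.74 and the other genes named here at -0.58 to -0.27. The median of the 10 genes there was -2.19.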

How the data were processed

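The deposited files hold, for 132288 transcripts a library, estimated counts, TPM and effective lengths, per the file headers. Per the submitters' processing notes the authors used Salmon and edgeR with GRCm38 (mm10). The sources used here give neither the Salmon version nor its annotation. Per the labels, the library kit was Nextera XT, and no strand is named.

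Estimated counts were summed over transcripts to genes with GENCODE M21 (131892 transcripts, 99.7%, matched by identifier without version). The 396 unmatched transcripts, with 0.0985 to 0.1435% of reads, were left out. TPM values deposited by the authors were summed the same way, and the effective length (another deposited column) served only as an offset in an alternative. Gene counts were rounded and filtered with filterByExpr (26960 genes). Tests were edgeR 4.0.16 quasi-likelihood fits (R 4.3.3) with TMM scaling, 1 mean per group over all 11 libraries, and Benjamini-Hochberg adjustment at 0.05. Alternatives used limma 3.58.1 (voom, and trend on log2(TPM + 1), pseudocount 1), DESeq2 1.42.0, other scalings, filters and covariates, the replicate block and leaving out each library. The scripts were tested on simulated data. No 2 libraries of a group were alike within counting noise.

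Named genes are the 10 members, list genes past the threshold or else with the smallest p, the 10 genes most like the members, and transcripts with at least 10% of their gene's TPM. Of the list genes, examples past the threshold are given. 1 of the genes most like the members is not reported here. The members and lists were chosen with earlier results of these data known.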

Additional observations from a re-analysis of the deposited data

Results flagged for a closer look

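The interaction of drug and genotype is given again for the genes whose libraries moved in opposite ways. The genotype difference (KO against WT) had opposite signs with and without rosiglitazone, with no overlap of libraries on either side, for Acly (interaction log2 fold change -2.60), Acaca (-4.24), Fasn (-4.39), Scd2 (2.02) and Thrsp (-2.80). Of all genes tested, 1.09% had this pattern in CPM. For Scd2 it did not hold in TPM: with rosiglitazone Scd2 measured 8.42 to 16.4 TPM in KO and 10.5 to 14.8 TPM in WT, which overlap. The drug response had opposite signs in WT and KO, again with no overlap, for Acaca and for Slc25a1 (-2.05), as for 1.87% of all genes. In the edgeR interaction test none of these passed after adjustment over all genes (adjusted p = 0.0981, 0.051, 0.0981, 0.309 and 0.124 for the first 5 and 0.271 for Slc25a1), so a difference between the groups was not shown by this test. No group was large enough for a check for a single outlying library, since that was made only for groups of 4 or more.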

How the results depend on the processing

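The counts of the 10 genes called, in the order rosiglitazone in WT, rosiglitazone in KO, genotype on diet, genotype with rosiglitazone and interaction, were 1, 0, 0, 6 and 0 in the reported fits (2.14, 0.0148, 0.137, 15 and 0.104% of all genes). RLE scaling gave the same counts (1.9, 0.0111, 0.134, 14.5 and 0.104% of all genes) and fits to the 2 groups compared gave 1, 0, 0 and 9 (1.27, 0, 0 and 35.8% of all genes, no interaction). Upper-quartile scaling gave 2, 3, 1, 6 and 1 (3.06, 0.0519, 0.286, 15.7 and 0.163% of all genes) and turned the sign of Scd2 at -0.063 (rosiglitazone in KO). DESeq2 gave 3, 6, 6, 7 and 6 (7.35, 1.35, 2.73, 22.1 and 1.97% of all genes). limma-voom with quality weights gave 6, 0, 0, 8 and 2 (27.2, 0, 0.0223, 34.1 and 0.226% of all genes) and turned the sign of Thrsp at 0.20 (rosiglitazone in WT) and of Scd2 at -0.092 (rosiglitazone in KO). No filter on low counts gave 2, 4, 1, 6 and 1 (1.3, 0.0479, 0.18, 8.13 and 0.113% of all genes). A filter of 1 CPM in 3 libraries gave 2, 0, 0, 6 and 1 (3.12, 0.00878, 0.22, 18.6 and 0.193% of all genes). Protein-coding genes alone gave 2, 2, 1, 6 and 1 (5.6, 0.065, 0.437, 23.6 and 0.307% of all genes) and turned the sign of Acss2 at -0.0040 (rosiglitazone in WT) and of Scd2 at -0.042 (rosiglitazone in KO). Transcript length offsets gave 0, 0, 0, 5 and 0 (1.22, 0.0111, 0.0556, 12.6 and 0.0148% of all genes) and turned the sign of Acss2 at 0.16 (rosiglitazone in KO). limma-trend on log2(TPM + 1) gave 0, 6, 1, 7 and 0 (0.178, 0.942, 0.308, 15.1 and 0.0185% of all genes) and turned the sign of Acly at -0.010 (rosiglitazone in WT), of Scd2 at -0.86 (rosiglitazone in KO) and of Elovl6 at -0.030 and Scd2 at -0.0064 (genotype with rosiglitazone). The replicate block gave 0, 0, 0, 6 and 0 (1.59, 0.00371, 0.00371, 12.8 and 0.00371% of all genes) and turned the sign of Acss2 at 0.067 (rosiglitazone in KO). WT grouped by titles gave 1, 0, 4, 1 and 1 (2.14, 0.0148, 10.7, 2.31 and 0.571% of all genes) and turned the sign of Acly at -0.17, Acaca at -1.17, Acacb at -1.83, Fasn at -0.61, Elovl6 at 1.10, Scd1 at 1.79, Scd2 at 2.01, Thrsp at 0.19, Slc25a1 at -1.04 and Acss2 at -0.061 (rosiglitazone in WT), of Acacb at -1.04 and Scd2 at 0.59 (genotype on diet), of Acacb at 0.094, Elovl6 at -0.59 and Scd2 at -1.41 (genotype with rosiglitazone) and of Acacb at 1.13, Scd2 at -2.004 and Slc25a1 at 0.018 (interaction). The mature adipocyte covariate gave 3, 7, 5, 1 and 5 (6.45, 3.08, 14.2, 7.66 and 2.08% of all genes) and turned the sign of Acly at -0.44, Fasn at -0.19 and Acss2 at -0.33 (rosiglitazone in WT), of Scd2 at -0.19 (rosiglitazone in KO), of Scd2 at 0.082 and Slc25a1 at 1.02 (genotype on diet), of Acly at 1.41, Fasn at 0.38, Thrsp at 0.89 and Acss2 at 0.054 (genotype with rosiglitazone) and of Scd1 at 0.51 and Acss2 at 0.096 (interaction). Leaving out the 4 libraries richest in muscle markers gave 0, 0, 0, 0 and 0 (0% of all genes in each) and turned the sign of Acly at -0.099 and Acss2 at -0.32 (rosiglitazone in WT), of Scd2 at -0.18 (rosiglitazone in KO) and of Scd1 at 0.34 and Acss2 at 0.25 (interaction). The B cell covariate, chosen after seeing the data, gave 3, 5, 5, 5 and 4 (8.16, 1.31, 5.95, 15.3 and 1.25% of all genes) and turned the sign of Acly at -0.019 and Acss2 at -0.053 (rosiglitazone in WT), of Acss2 at 0.13 (rosiglitazone in KO) and of Scd1 at 0.81 and Acss2 at 0.19 (interaction). Leaving out each library in turn except those of KO on diet, the counts ran from 0 to 2, 0 to 3, 0 to 1, 2 to 7 and 0 to 5. The share of all genes called in these fits ran from 0.0673 to 10.4%, 0.00372 to 0.0785%, 0.00747 to 0.303%, 5.6 to 22.1% and 0.00372 to 0.422%. Without 1 of the 2 KO libraries on diet, that group holds 1 library. Over all 11 fits that left out 1 library, log2 fold changes that turned sign ran from -0.27 to 0.60 for Acss2 (rosiglitazone in WT), from -0.026 to 0.52 for Acly (rosiglitazone in WT), from -0.41 to 0.27 for Thrsp (rosiglitazone in WT), from -0.18 to 0.20 for Scd2 (rosiglitazone in KO), from -1.29 to 0.30 for Acacb (rosiglitazone in KO), from -1.0 to 0.0011 for Slc25a1 (genotype on diet), from -0.21 to 1.38 for Acacb (genotype on diet), from -1.80 to 0.074 for Elovl6 (interaction), from -0.97 to 0.64 for Scd1 (interaction) and from -0.68 to 0.19 for Acss2 (interaction). No other log2 fold change of the 10 genes turned its sign under these alternatives. The replicate numbers did not pair the libraries: deviations of same-numbered libraries correlated from -0.419 to 0.608, and the block ended the Scd2 call in WT. The cause of these differences was not tested. On the TPM scale the median of all genes was -0.60 with rosiglitazone in KO, -0.46 in the interaction, -0.30 for genotype with rosiglitazone and -0.13 with rosiglitazone in WT. A group has 2 or 3 libraries. Where an alternative leaves a group with 1 library, that library is assumed to vary like the other groups. Each of the 10 genes had at least 119 estimated reads in every library.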

Other observations

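Brown and beige adipocyte genes, among them the fatty acid elongase Elovl3, had their lowest summed levels in WT on diet. The 8 markers of these cells summed to 18.5 to 70.5 CPM in WT on diet and 241 to 517 CPM in WT with rosiglitazone, with 2 of 8 called higher by edgeR (1.55% of all genes were). The KO libraries on diet had sums of 80.4 and 408 CPM and the treated KO libraries of 122 to 347 CPM, with 0 of 8 called in either direction by edgeR (0.0148% of all genes were) and 0 at an unadjusted p under 0.05 (8.36% of all genes). Elovl3 measured 27.8 and 3.75 CPM in KO on diet and at most 1.10 CPM in WT on diet. With rosiglitazone it measured 3.20 to 15.4 CPM in WT and 0.747 to 8.28 CPM in KO. Ucp1, the brown fat uncoupling protein, measured 125 and 14.7 CPM in KO on diet and 0 to 18.1 CPM in WT on diet. With rosiglitazone Ucp1 reached similar levels, 23.7 to 115 CPM in WT and 24.3 to 139 CPM in KO. Of the 2 KO libraries on diet, the one with more Elovl3 and Ucp1 is also the one with more Fasn, Acly and Elovl6, and this was not tested.

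Markers of other cell types also varied between libraries. The 6 adipocyte progenitor markers summed to 973 to 1970 CPM in WT on diet and 1605 and 4261 CPM in KO on diet, and 2 of 6 were called higher in KO against WT with rosiglitazone (5.47% of all genes were). Of 6 endothelial markers 3 were called lower in that comparison (9.5% of all genes were). The 10 T and NK cell markers summed to 29.9 and 47.3 CPM in the 2 libraries, of WT and of KO on diet, that were low in B cell markers and 536 CPM in the other KO library on diet. Mammary epithelial markers summed to 1.08 to 75.9 CPM over all libraries, and the milk protein gene Csn2 was at most 1.12 CPM.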
